A study of Homo sapiens with 42 samples.

Results

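Peaks of N6-methyladenosine (m6A) that were called after METTL3 knockdown and not after METTL14 knockdown, or the reverse, were compared in HepG2 cells, a line derived from a human liver carcinoma. A peak was counted as private when no peak of the other list on the same strand shared even 1 base of its blocks, the exonic pieces that make up a peak, and as shared otherwise. The METTL3 list held 30352 peaks in 13321 genes, of which 5960 were private (19.6%, 95% interval 19.2 to 20.1%). The METTL14 list held 28841 peaks in 12503 genes, of which 3820 were private (13.2%, 12.9 to 13.6%). Together these were 9780 private peaks of 59193 in both lists, and of 211410 in the 7 lists of the series. All intervals on shares are exact Clopper-Pearson 95% intervals and cover counting error only.

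The assay, m6A-seq, sequences mRNA fragments that an m6A antibody has enriched (IP) and, in parallel, the fragments before enrichment (input). The series has 42 libraries in 14 groups of 3: HepG2 cells with stably expressed, lentivirus-delivered short hairpin RNAs (shRNAs) under puromycin selection, directed against METTL3, METTL14, WTAP, SETD2 #1 or SETD2 #2, with a non-specific control shRNA and with a second control for SETD2 #2, each as input and as m6A IP. For the METTL14 samples the shRNA and genotype labels are spelled METLT14, while their titles read METTL14. The labels give 1 shRNA name for METTL3 and 1 for METTL14, and say neither whether the cells were clonal nor whether replicates 1 to 3 were separate cultures.

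METTL3 and METTL14 form the core of the enzyme that writes m6A on nuclear mRNA. METTL3 carries the catalytic site and binds the methyl donor, and METTL14, which has no catalytic activity of its own, holds the RNA and stabilises METTL3. WTAP is an adaptor that brings the pair to nuclear speckles, and SETD2 is a methyltransferase for histone H3. The mark lies at short recognition sequences and is known to gather near stop codons and in long internal exons.

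Each list was called by the authors on 6 libraries together, 3 IP and 3 input, so no value below has a replicate error and no test between METTL3 and METTL14 could be made. A peak absent from a list is one that the caller did not report. Besides methylation, sequencing depth (unknown here for every library), the amount of the transcript and the quality of the pull-down can set this. The peak tables hold no RNA levels, so the knockdowns and the liver origin of the cells were not checked. The tables name genes by Ensembl identifier without a symbol, so genes are given by position on hg19 and the roles of single genes are left out.

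The private share of the 2 knockdowns lay within the range of the 5 other pairs of lists that were compared in the same way. Private peaks of either list made up 16.5% (16.2 to 16.8%) of the METTL3 and METTL14 peaks. The same quantity was 17.0% for METTL3 with WTAP, 15.0% for METTL14 with WTAP, 16.4% for METTL3 with SETD2 #1 and 20.4% for METTL14 with SETD2 #1. The second control with the control, which differ in no knockdown, gave 22.3% (22.0 to 22.6%). The split between the directions was uneven: there were 1.56 METTL3 private peaks for each METTL14 private peak. Among those with a p-value of at most 1e-05 there were 2.02. The METTL3 list was also the longer one, and a longer list can hold more private peaks by length alone.

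Private peaks were weakly supported in both lists. Fold enrichment (IP over input) and p-value are the authors' values for each peak. METTL3 private peaks had a median fold enrichment of 3.5, against 8.12 for METTL3 shared peaks, and a median log10 p of -3.95, against -20.7. METTL14 private peaks had a median fold enrichment of 6.1, against 6.85 for METTL14 shared peaks, and a median log10 p of -3.57, against -15.3. So by p-value the private peaks of both lists sat at the weak end, while by fold enrichment those of METTL14 lay close to their shared peaks. Private peaks were also narrow, with medians of 150 bases (METTL3) and 142 bases (METTL14), against 300 and 270 bases for the shared peaks of the same lists. A peak that crossed a splice junction, with more than 1 block, was found for 18.5% (17.5 to 19.5%) of METTL3 private and 43.1% of METTL3 shared peaks. For METTL14 it was 31.1% (29.6 to 32.6%) of private and 40.6% of shared peaks.

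When each list was divided into 5 equal classes by p-value, nearly all strong peaks were shared. Among the fifth of peaks with the best p-values, 5 of 6070 METTL3 peaks (0.0824%, 0.0268 to 0.192%) and 13 of 5768 METTL14 peaks (0.225%, 0.12 to 0.385%) were private. At the other end, in the class of the worst p-values, 53.3% of METTL3 peaks and 39.7% of METTL14 peaks were private. Of the peaks at or better than their list's median p-value, 2.44% (2.2 to 2.7%) were private to METTL3 and 1.65% (1.45 to 1.87%) to METTL14. The METTL3 share was the higher one in the 3 weakest classes, while in the 2 strongest classes the intervals of the lists overlapped.

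**Figure D1:**
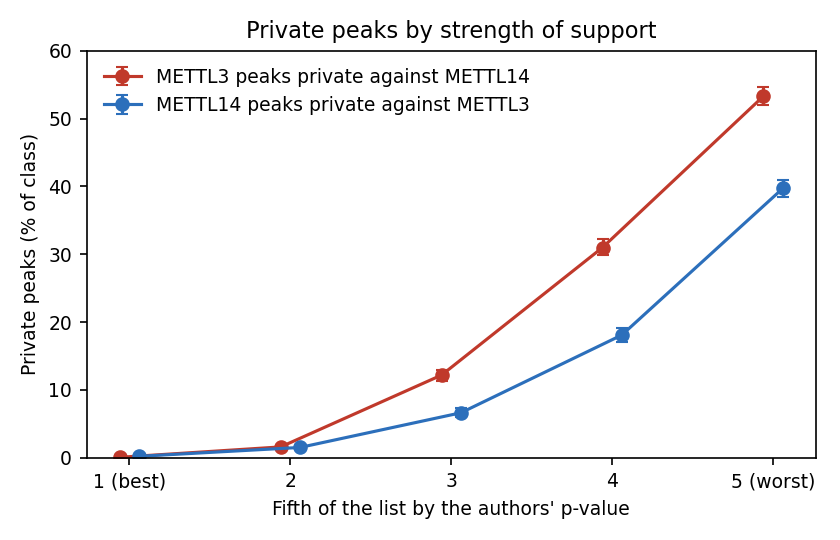
Private share of each list (%, vertical axis) in 5 equal classes of its peaks by the authors' p-value, best to worst (horizontal axis); points are shares and bars exact 95% intervals for counting error. Both curves climb from under 1% to 53.3% for METTL3 and 39.7% for METTL14, and they part from the middle class on.

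By fold enrichment the lists differed at both ends of the scale. Of METTL3 peaks with a fold enrichment under 3, 43.3% (42.1 to 44.6%) were private, against 17.0% (16.0 to 18.0%) of such METTL14 peaks. Between 12 and 24 the shares were 11.6% for METTL3 and 13.3% for METTL14. At 24 and above they were 0.968% (0.675 to 1.34%) for METTL3 and 3.89% (3.23 to 4.65%) for METTL14. METTL3 thus held the larger private share among peaks with low enrichment, and METTL14 among peaks with high enrichment. Widths of private peaks were nearly alike in both lists, with quartiles of 91 and 181 bases for METTL3 and of 91 and 180 bases for METTL14.

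Limits on p-value that were added after the data were seen showed the same shift. At a p-value of at most 1e-20 there were 119 METTL3 private peaks with a median fold enrichment of 2.61 and 92 METTL14 private peaks with a median of 11.4. At 1e-40 there were 14 METTL3 private peaks with a median of 2.04 and 31 METTL14 private peaks with a median of 24.4. METTL3 therefore had more private peaks over the whole list and fewer at the strictest limit, where the private peaks lay in only 12 METTL3 and 21 METTL14 genes. All peaks of each list were not counted at 1e-20 and 1e-40, so these counts have no share beside them. At 1e-10, 585 of 16847 METTL3 peaks and 301 of 15184 METTL14 peaks were private.

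Few private peaks lay within 50 bases of a peak of the other list, and more lay a little further off. Within 100 bases the shares were 4.36% of METTL3 and 5.99% of METTL14 private peaks. For 11.3% and 13.3%, a peak of the other list in the same gene lay within 200 bases. Just outside the rule, a peak of the other list lay within 50 bases of 60 METTL3 private peaks (1.01%) and of 60 METTL14 private peaks (1.57%), whose median fold enrichments were 5.16 and 5.75. Just inside it, 244 METTL3 peaks and 269 METTL14 peaks shared no more than 50 bases with a peak of the other list, with median fold enrichments of 4.82 and 4.73. For 68.3% of METTL3 private peaks and 74.2% of METTL14 private peaks the gene did hold a peak of the other list, at a median gap of 1170 and 1220 bases of genome. The remaining 31.7% and 25.8% lay in genes without any peak of the other list.

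The place of a peak in its gene differed between the directions. Peaks of all 7 lists that overlapped on a strand were joined into loci. A peak was placed as the only, the 5'-most, an internal or the 3'-most locus of its gene. Of METTL3 private peaks 10.8%, and of METTL14 private peaks 10.6%, fell in a locus that also held a peak of the other list. The transcript regions (UTR, coding sequence, stop codon) were not analysed here. METTL14 private peaks were internal in 45.4% (43.8 to 47.0%), against 36.2% (35.6 to 36.8%) of METTL14 shared peaks, and 3'-most in 17.3% (16.1 to 18.5%), against 24.9% (24.4 to 25.5%). METTL3 private peaks went the other way by a small margin, with 33.7% (32.5 to 34.9%) internal, against 36.4% (35.8 to 37.0%) of METTL3 shared peaks, and 26.9% (25.8 to 28.1%) 3'-most, against 24.9% (24.4 to 25.5%). The 5'-most shares were nearly alike, with 24.5% of METTL3 private and 25.6% of METTL3 shared peaks, and 25.4% of METTL14 private and 25.8% of METTL14 shared peaks.

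**Figure D2:**
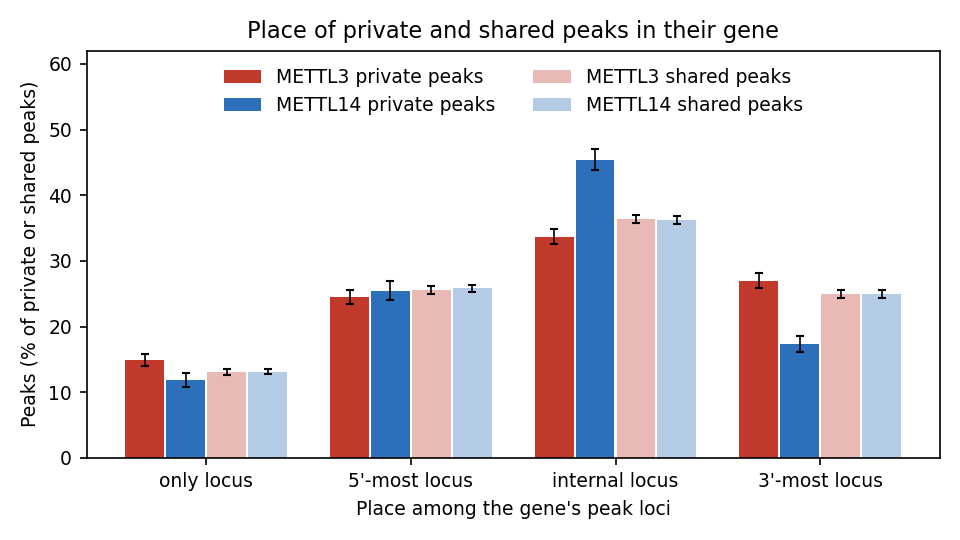
Place of peaks among the peak loci of their gene (horizontal axis) as a share of all private or shared peaks of a list (%, vertical axis); bars show shares and error bars exact 95% intervals for counting error. METTL14 private peaks stand out with 45.4% internal and 17.3% 3'-most, against 33.7% and 26.9% of METTL3 private peaks.

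Counted the other way, 20.9% (20 to 21.8%) of 3'-most METTL3 peaks and 9.58% (8.9 to 10.3%) of 3'-most METTL14 peaks were private. At internal loci the private shares were 18.4% (17.7 to 19.2%) for METTL3 and 16.1% (15.4 to 16.8%) for METTL14. Peaks at the 3' end were the better supported ones, with a median log10 p of -17.3 in METTL3 and -15.6 in METTL14, so places were also compared within a class of p-value. In the middle class, 17.9% (16.0 to 19.9%) of METTL3 3'-most peaks were private, against 12.4% of its internal and 6.71% of its 5'-most peaks. In the same class 5.79% (4.62 to 7.16%) of METTL14 3'-most peaks were private, against 10.3% (9.06 to 11.7%) of its internal and 3.81% of its 5'-most peaks. Within that class the 3'-most share of METTL3 was above its internal share, and that of METTL14 was below its internal share.

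The position relative to the nearest peak of the other list in the gene was also counted. It uses the peaks of the other list, as the rule did, so it is not separate support for the place. No such share was taken for shared peaks. Of METTL14 private peaks with such a neighbour, 59.9% (58.1 to 61.7%) lay on its 5' side, and of METTL3 private peaks 47.7% (46.2 to 49.3%) did. A second way to place peaks, by dividing the span that the control list's peaks cover in the gene into 3 equal stretches, was added after the data were seen. There, 9.96% (9.41 to 10.5%) of METTL14 peaks in the 3' stretch or beyond were private, against 14.6% (13.3 to 16.0%) in the middle stretch and 12.3% (11.6 to 13.0%) in the 5' stretch or beyond. For METTL3 the shares were 18.3% (17.6 to 19%) in the 3' stretch or beyond, 14.3% (13.0 to 15.7%) in the middle stretch and 17.6% (16.9 to 18.4%) in the 5' stretch or beyond, so the 3' and 5' values overlapped and the middle was the lowest.

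The private share also differed with the number of loci in the gene. From genes with 1 locus to genes with 11 or more, the private share of METTL3 peaks went down from 21.7% (20.5 to 23%) to 13.7% (11.5 to 16.3%). Over the same range the private share of METTL14 peaks was 12.1% (11.1 to 13.2%) in genes with 1 locus, 10.9% in genes with 2 to 3 loci, 14.6% with 4 to 6 and 17.0% (14.6 to 19.6%) with 11 or more. A private peak can itself add a locus to its gene, so the number of loci is not fully separate from the count. Internal places exist only in genes with several loci, and place and number of loci were not told apart.

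The 5 other lists, which the rule did not use, also differed between the directions. METTL3 private peaks were found in the control list in 71.6% (70.4 to 72.7%), and METTL14 private peaks in 44.1% (42.6 to 45.7%). In the WTAP list the order was opposite, with 34.7% (33.5 to 35.9%) of METTL3 private peaks and 48.0% (46.4 to 49.6%) of METTL14 private peaks. SETD2 #1 had 49.8% of METTL3 and 24.8% of METTL14 private peaks, SETD2 #2 had 44.5% and 21.5%, and the second control 49.7% and 27.4%. WTAP was the only one of these 5 lists that held a larger share of METTL14 private peaks. Shared peaks, which by the rule lie at the same places in both lists, were found in WTAP in 92.2% (METTL3) and 91.9% (METTL14) and in the control in 93.8% and 93.9%.

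**Figure D3:**
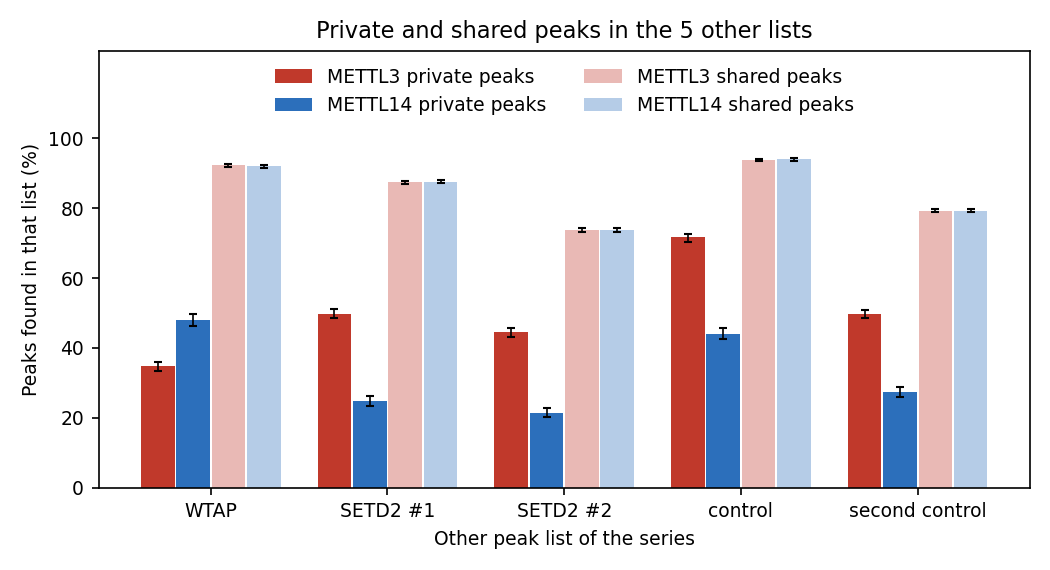
Share of private and shared peaks (%, vertical axis) that were found in each of the 5 other lists (horizontal axis); bars show shares and error bars exact 95% intervals for counting error. METTL3 private peaks were found more often in 4 lists, and METTL14 private peaks more often in WTAP, 48.0% against 34.7% for METTL3.

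With better p-values the contrast over WTAP widened. Among private peaks with a p-value of at most 1e-05, 43.6% (41.4 to 45.8%) of 2015 METTL3 peaks and 68.9% (65.9 to 71.8%) of 997 METTL14 peaks were found in WTAP. In the control the shares at this limit were 83.3% (81.6 to 84.9%) for METTL3 and 44.4% (41.3 to 47.6%) for METTL14. At 1e-20, WTAP held 62 of 119 METTL3 private peaks and 79 of 92 METTL14 private peaks, while the control held 102 of 119 and 35 of 92. At 1e-40, WTAP held 4 of 14 METTL3 and 28 of 31 METTL14 private peaks, and the control 11 of 14 and 12 of 31. So at 1e-40 the METTL14 private peaks, in 21 genes, were mostly also WTAP peaks. The METTL3 private peaks at that limit, in 12 genes, were mostly control peaks. Shared peaks at 1e-05 were found in WTAP in 95.5% (METTL3) and 96.6% (METTL14), and in the control in 96.6% and 95.9%.

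Combinations of lists were counted as well. Found in the control and not in WTAP were 44.3% (43.1 to 45.6%) of METTL3 private peaks and 18.8% (17.6 to 20.1%) of METTL14 private peaks. Found in WTAP and not in the control were 7.45% (6.8 to 8.15%) of METTL3 private peaks and 22.7% (21.4 to 24%) of METTL14 private peaks. WTAP was the sole other list for 4.85% of METTL3 and 17.6% (16.4 to 18.8%) of METTL14 private peaks. All 4 lists other than WTAP, and not WTAP, held 943 METTL3 private peaks (15.8%) and 123 METTL14 private peaks (3.22%). All 5 lists held 640 METTL3 private peaks (10.7%) and 178 METTL14 private peaks (4.66%). None of the 5 held 819 METTL3 private peaks (13.7%) and 994 METTL14 private peaks (26.0%, 24.6 to 27.4%).

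Seen from the other lists, the control held more peaks found in METTL3 and not in METTL14 than the reverse, 11.7% (11.3 to 12%) of its 33672 peaks against 4.62% (4.4 to 4.85%). For SETD2 #1 the shares were 10.5% found in METTL3 only and 3.28% found in METTL14 only. In WTAP they lay closer together, with 7.35% (7.05 to 7.65%) found in METTL3 only and 6.23% (5.96 to 6.51%) found in METTL14 only. Among WTAP peaks with a p-value of at most 1e-05 the counts were 719 in METTL3 only and 718 in METTL14 only, of 21774. The control is one and the same list for both directions.

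Place and presence in the other lists also went together. Internal METTL14 private peaks were found in the control in 36.0% (33.8 to 38.4%), against 53.1% (49.9 to 56.3%) of its 5'-most and 47.4% (43.5 to 51.2%) of its 3'-most private peaks. Their share in WTAP was 48.4% (46.1 to 50.8%), the same as at the 3'-most place. For METTL3 the presence of private peaks in the control varied less, with 69.8% at internal, 74.1% at 5'-most and 74.8% at 3'-most loci. In SETD2 #1, 56.1% (53.6 to 58.5%) of 3'-most METTL3 private peaks were found, against 48.8% (46.6 to 51.0%) of the internal ones.

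Where a private peak was found in the control, its own enrichment was mostly the lower one. The 4267 METTL3 private peaks in the control had a median fold enrichment of 3.2 in METTL3 and of 4.29 in the overlapping control peak, and 30.3% were higher in METTL3. The 1686 METTL14 private peaks in the control had a median of 5.9 in METTL14 and 6.86 in the control, and 43.5% were higher in METTL14. For shared peaks found in the control, 44.3% were higher in METTL3 and 35.7% were higher in METTL14. The order of private and shared peaks was therefore opposite in the 2 knockdowns.

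Private peaks were spread over many genes. A METTL3 private peak was present in 4650 of the 13321 METTL3 genes (34.9%). A METTL14 private peak was present in 2830 of the 12503 METTL14 genes (22.6%). Both kinds occurred in 654 genes, which is 14.1% of the genes with METTL3 private peaks and 23.1% of those with METTL14 private peaks. Genes with no peak in the other list could not hold both kinds. The shares over all genes, 34.9% and 22.6%, include such genes, so they are no baseline for 14.1% and 23.1%. Whether both kinds met in a gene more or less often than by chance was not tested. Genes with METTL3 peaks and no METTL14 peak numbered 1571 (11.8% of 13321), and genes with METTL14 peaks and no METTL3 peak numbered 753 (6.02% of 12503). Most of these genes had a single peak, 82.2% for METTL3 and 81.9% for METTL14. Of the 1571 METTL3 genes, 40.4% (38.0 to 42.9%) had a peak in WTAP, 56.1% in SETD2 #1 and 75.0% (72.8 to 77.2%) in the control. Of the 753 METTL14 genes, 51.1% (47.5 to 54.8%) had a peak in WTAP, 30.8% in SETD2 #1 and 58.3% (54.7 to 61.8%) in the control.

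METTL14 private peaks gathered more in single genes. Genes with 5 or more private peaks were 11 for METTL3, holding 60 private peaks (1.01%, 0.769 to 1.29%), and 38 for METTL14, holding 239 private peaks (6.26%, 5.51 to 7.07%). The highest number in a gene was 8 for METTL3 and 18 for METTL14. In genes with 3 or more of them lay 12% (11.2 to 12.9%) of METTL3 private peaks and 19.8% (18.6 to 21.1%) of METTL14 private peaks.

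The gene with the most METTL14 private peaks was ENSG00000185567.6, with peaks on the minus strand of chromosome 14 from 105404151 to 105423835. It had no peak in METTL3, 18 peaks in METTL14, 18 in WTAP, 4 in SETD2 #1, 3 in SETD2 #2, 6 in the control and 5 in the second control. Its fold enrichments ran in METTL14 from 2.22 to 746 with a median of 36.4. They ran in WTAP from 6.34 to 25.9 with a median of 11.8, and in the control from 6.0 to 13.7 with a median of 9.87. The log10 p-values of the 18 METTL14 peaks ran from -250 to -2.14, and the best one was -9.52 in WTAP and -4.34 in the control. METTL14 and WTAP thus had equal numbers of peaks there, with the higher enrichments in METTL14, and of the 18 METTL14 peaks 10 overlapped a WTAP peak and 4 a control peak. Its peak from 105419982 to 105421272, 1291 bases in 1 block, had the highest fold enrichment of all METTL14 private peaks. That peak was found in all 5 other lists, with fold enrichments of 746 in METTL14, 25.9 in WTAP, 22.0 in SETD2 #1, 3.85 in SETD2 #2, 13.7 in the control and 14.5 in the second control.

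The next METTL14 gene was ENSG00000166963.12, on the plus strand of chromosome 15 from 43814887 to 43823489. It had no peak in METTL3, 10 peaks in METTL14, 9 in WTAP, none in SETD2 #1, 2 in SETD2 #2 and none in either control. Fold enrichment ran from 10.4 to 39.7 in METTL14 and from 11 to 38.1 in WTAP, and each of the 10 METTL14 peaks overlapped a WTAP peak. Support was modest, with log10 p-values of the 10 METTL14 peaks from -12 to -2.64. Peaks of this gene were thus called after METTL14, WTAP and SETD2 #2 knockdown only, among the 7 lists.

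A gene on the minus strand of chromosome 16 from 2326031 to 2390598 had no peak in METTL3 and 10 in METTL14, beside 6 in WTAP and 1 in the control. Its METTL14 peaks had a median fold enrichment of 9.46 and log10 p-values from -7.54 to -2.56. On the plus strand of chromosome 17 from 48133332 to 48167785, a gene had 2 peaks in METTL3 and 11 in METTL14, beside 6 in WTAP and 2 in the control. Its 9 private peaks had log10 p-values from -65.2 to -4.21. A gene on the minus strand of chromosome 1 from 22148768 to 22222766 had 14 peaks in METTL3 and 21 in METTL14, beside 20 in WTAP and 6 in the control. Its 9 private peaks, with fold enrichments from 1.63 to 9.15, all overlapped WTAP peaks and no control peak. Their log10 p-values ran from -29.7 to -3.47. The sixth gene, on the plus strand of chromosome 2 from 220308773 to 220362859, had 1 peak in METTL3 and 9 in METTL14, beside 7 in WTAP and 2 in the control. Its 8 private peaks had log10 p-values from -23.7 to -2.64. In these 6 genes together, 45 of 64 METTL14 private peaks were found in WTAP and 7 in the control. Over all METTL14 private peaks the shares were 48.0% and 44.1%, and 18 of the 64 lay in 1 gene.

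The gene with the most METTL3 private peaks was ENSG00000205592.13, on the plus strand of chromosome 12 from 40876692 to 40884911. It had 16 peaks in METTL3, 9 in METTL14, 10 in WTAP, 1 in SETD2 #1, none in SETD2 #2, 13 in the control and none in the second control. Fold enrichment ran from 8.63 to 64.9 in METTL3, from 9.76 to 19.5 in METTL14 and from 9.43 to 36.9 in the control. Its 8 private peaks had fold enrichments from 8.63 to 19.8, and 8 of them overlapped a WTAP peak and 7 a control peak. Support for these 8 private peaks was weak, with log10 p-values from -5.78 to -2.19. Peaks of a gene can share a locus: the 8 private peaks here fell into 5 loci, the 18 of ENSG00000185567.6 into 14 and the 6 of ENSG00000234420.7 into 3.

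For ENSG00000234420.7, on the minus strand of chromosome 10 from 43015231 to 43016435, there were 6 peaks in METTL3, none in METTL14, 3 in WTAP, 4 in SETD2 #1, 4 in SETD2 #2, 7 in the control and 6 in the second control. The 6 METTL3 peaks had fold enrichments from 1.98 to 4.2 and log10 p-values from -7.18 to -2.41. Each overlapped a control peak, and control fold enrichments in this gene ran from 1.7 to 7.29. METTL14 was the only one of the 7 lists with no peak in it. A gene on the minus strand of chromosome 17 from 80036423 to 80056178 had 10 peaks in METTL3 and 4 in METTL14, beside 8 in WTAP and 7 in the control. Its 6 private peaks, with fold enrichments from 1.88 to 4.86, had log10 p-values from -113 to -16.1.

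On the plus strand of chromosome 5 from 82785985 to 82877103, a gene had 8 peaks in METTL3, 3 in METTL14, 4 in WTAP, 5 in SETD2 #1, 12 in SETD2 #2, 16 in the control and 13 in the second control. Its 5 private peaks were all found in the control and none in WTAP, and their log10 p-values ran from -32.7 to -2.38. A gene on the minus strand of chromosome 1 from 202697929 to 202777580 had 6 peaks in METTL3 and 1 in METTL14, beside 2 in WTAP and 6 in the control. Its 5 private peaks, with log10 p-values from -18.5 to -3.28, were likewise all found in the control. The last of the 6, on the plus strand of chromosome 22 from 46546749 to 46637015, had 9 peaks in METTL3 and 4 in METTL14, beside 6 in WTAP and 8 in the control. Its 5 private peaks had log10 p-values from -5.26 to -2.56. In these 6 genes together, 16 of 35 METTL3 private peaks were found in WTAP and 29 in the control. Over all METTL3 private peaks the shares were 34.7% and 71.6%.

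**Figure D4:**
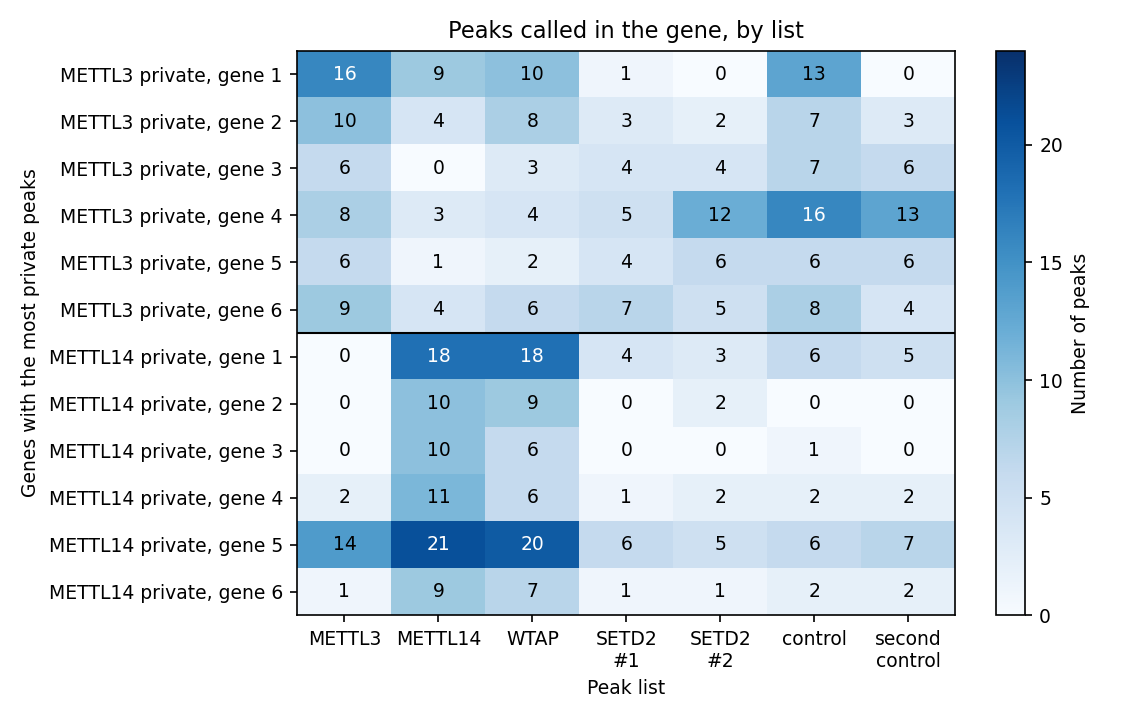
Number of peaks (printed in each cell and shown by shade) per list (horizontal axis) in the 6 genes with the most METTL3 private peaks (above the line) and the 6 with the most METTL14 private peaks (below it), each in order of that number. The METTL14 genes total 17 peaks in METTL3 and 79 in METTL14, beside 66 in WTAP and 17 in the control. The METTL3 genes total 55 and 21, beside 33 and 57. Genes were chosen by their private peaks, so the contrast between the METTL3 and METTL14 columns follows from the choice.

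The private peaks with the lowest p-values were described next. Of the 12 for METTL3, 1 per gene, the fold enrichments ran from 1.29 to 10.6, 9 were under 3, 7 were 3'-most, 4 were found in WTAP and 9 in the control. Of the 12 for METTL14, the fold enrichments ran from 1.39 to 746, 4 were under 3, 8 were internal, 10 were found in WTAP and 5 in the control. The leading METTL3 peak, on the minus strand of chromosome 2 from 21233625 to 21233805, had a log10 p of -142 and fold enrichments of 1.67 in METTL3, 1.85 in SETD2 #1, 2.22 in SETD2 #2, 2.04 in the control and 1.89 in the second control, with no peak in METTL14 or WTAP. Next came a 3'-most peak on the plus strand of chromosome 17 from 16284924 to 16285352, with fold enrichments of 1.42 in METTL3, 1.67 in SETD2 #1, 3.24 in SETD2 #2, 1.66 in the control and 4.14 in the second control, and again no peak in METTL14 or WTAP. In both peaks a low enrichment in METTL3 came with a low enrichment in the control.

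For METTL14, the peak on chromosome 14 described above led. A narrow peak on the plus strand of chromosome 19 from 49469098 to 49469608 followed, with a log10 p of -186 and fold enrichments of 1.39 in METTL14, 1.99 in SETD2 #1, 1.2 in SETD2 #2, 1.24 in the control and 1.18 in the second control. It was 1 of the 2 among these 12 that WTAP lacked. The only 5'-most peak of these 12 lay on the minus strand of chromosome 10 from 75672015 to 75682475, in 4 blocks, with fold enrichments of 27.7 in METTL14, 6.87 in WTAP and 2.67 in the control. An internal peak on the plus strand of chromosome 5 from 131602443 to 131606854 had fold enrichments of 15.9 in METTL14 and 7.91 in WTAP and was found in no other list.

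By fold enrichment among private peaks with a p-value of at most 1e-05, the 6 highest ran from 35.0 to 45.2 for METTL3 and from 115 to 746 for METTL14. Of the 6 METTL14 peaks, 4 came from the gene on chromosome 14, and 6 were found in WTAP. Another was a 5'-most peak on the plus strand of chromosome 6 from 31543344 to 31544339, with 115 in METTL14, 39.2 in WTAP and 4.86 in the control. Of the 6 METTL3 peaks, 5 were found in WTAP and 5 in the control. The highest and the fourth of them were the same place on chromosome 1, from 93645686 to 93646135 for the plus-strand call and from 93645687 to 93646135 for the minus-strand call, whose fold enrichments were 45.2 and 44.1. Which strand and gene that signal belongs to is uncertain, because pairs of peaks on opposite strands that shared 90% of their bases had fold enrichments within 10% of each other for 86.1% of 296 pairs in METTL3 and 85.5% of 275 pairs in METTL14.

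Private peaks that all 5 other lists held were looked at after the data were seen. The 5 such METTL3 peaks with the lowest p-values had fold enrichments from 1.88 to 2.37. One of them, the only locus of its gene on the minus strand of chromosome 2 from 62115369 to 62115701, had fold enrichments of 2.19 in METTL3, 1.4 in WTAP, 2.68 in SETD2 #1, 1.79 in SETD2 #2, 3.35 in the control and 1.88 in the second control. METTL14 was the only list without a call at that place. The 5 such METTL14 peaks ran from 1.42 to 746. A 3'-most peak among them, on the plus strand of chromosome 17 from 43221248 to 43221518, had 4.64 in METTL14, 4.91 in WTAP, 3.58 in SETD2 #1, 2.57 in SETD2 #2, 2.67 in the control and 2.52 in the second control.

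Peaks that both knockdowns shared were mostly similar in enrichment. Of 19954 peaks matched 1 to 1, METTL3 had the higher fold enrichment in 61.8%, and the median log2 ratio of METTL3 over METTL14 was 0.20, with quartiles of -0.26 and 0.64. A difference of over 2 times was present in 20.1%, with METTL3 the higher in 12.8% and METTL14 in 7.27%. Over WTAP the median log2 ratio was 0.24 for METTL3 and 0.04 for METTL14. The spread of METTL14 over WTAP was nearly as wide as that of METTL3 over METTL14, with quartiles of -0.42 and 0.43 and a difference of over 2 times in 17.8%. The second control over the control had a median log2 ratio of -0.53, larger in size than the shift between METTL3 and METTL14. Matched peaks were wider in METTL3 for 50.6% and narrower for 26.4%.

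**Figure D5:**
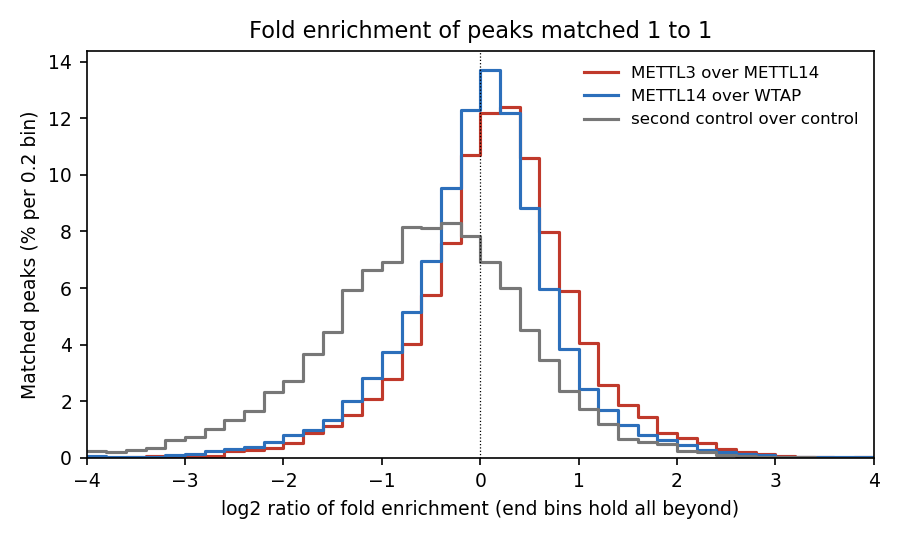
Distribution of the log2 ratio of fold enrichment (horizontal axis) over peaks matched 1 to 1 between lists (% of matched peaks per bin, vertical axis), for METTL3 over METTL14, METTL14 over WTAP and the second control over the control. The first is centred at 0.20, the second at 0.04 and the third at -0.53, and the dotted line marks equal enrichment.

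By place, the ratio of matched peaks was highest at 3'-most loci, where the median log2 ratio of METTL3 over METTL14 was 0.25 and METTL3 was the higher in 68.4% of 4949 peaks. At internal loci it was 0.13, with METTL3 the higher in 58.4% of 7528 peaks. At 5'-most loci it was 0.22, with 60.2% of 5088 peaks. Where the locus was the only one of its gene it was 0.23, with 62.3% of 2389 peaks. The 3'-most and internal places thus stood in the same order as in the METTL3 private shares. Matched peaks come from the same 2 lists as the private peaks, so this is not separate support.

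The matched peaks with the most unequal enrichment, at a p-value of at most 1e-05 in both lists, reached ratios of METTL3 over METTL14 of 20.1 and 0.0649. The first lay on the minus strand of chromosome 17 from 59472771 to 59488916, with fold enrichments of 215 in METTL3, 10.7 in METTL14, 61.8 in WTAP, 31.2 in SETD2 #1, 14 in SETD2 #2, 44.6 in the control and 46.2 in the second control. Relative to the control, METTL3 was higher and METTL14 lower at that place, with a log10 p of -101 in METTL3 and -9.34 in METTL14. The second lay on the minus strand of chromosome 12 from 48377874 to 48383558, with 11.1 in METTL3, 171 in METTL14, 19.7 in WTAP, 7.19 in SETD2 #1, 2.44 in SETD2 #2, 23.1 in the control and 4.65 in the second control. Here METTL14 had the highest fold enrichment of the 7 lists and METTL3 stood below the control. By p-value the order was opposite, with a log10 p of -288 in METTL3 and -85.6 in METTL14. On the plus strand of chromosome 20 from 62730118 to 62730535, fold enrichment was 27.9 in METTL3 and 297 in METTL14, beside 93.5 in WTAP and 30.9 in the control. That peak was 418 bases wide in METTL3 and 1432 bases in METTL14, with a log10 p of -10.3 and -127.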

How the data were processed

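Per the labels, the authors ran exomePeak once per condition on replicates 1 to 3 as a pool, giving 1 list each. Of tools and builds, FastQC 0.11.5, TopHat2 2.1.1 and hg19 stand in the submitters' processing notes, while for the exomePeak version and the gene annotation the sources used here name none. The deposited tables hold, per peak, the p-value of the IP enrichment, log10 scores of that p-value and of its FDR, and the fold enrichment as a linear ratio. A shorter deposited list per condition held the peaks that had both a p-value up to 1e-05 and a fold enrichment from 2 upwards. Reads per library, and so the precision they give, are unknown.

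Rows repeating strand and blocks were dropped, 11 for METTL3 and 14 for METTL14. Overlaps were computed per block and strand with bedtools 2.31.1, other values with pandas 2.3.3, scipy 1.17.1 and numpy 2.4.6 under Python 3.11.15, and figures with matplotlib 3.10.9. The private call was tested on simulated data, made by removing peaks at random from the METTL3 list. That tests the computing of overlaps only, and not the depth, peak edges or noise that separate 2 called lists. Of private peaks, the 12 with the lowest p-value (1 per gene), the 6 with the highest fold enrichment and the 6 genes with the most were named from, and of matched peaks the 5 highest and 5 lowest ratios. The members and lists were chosen with earlier results of these data known. None of 14074 gene identifiers matched a symbol, so gene lists, marker checks and the genes of METTL3, METTL14 and WTAP were not analysed here, nor were sequences, since no genome of this build was used.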

Additional observations from a re-analysis of the deposited data

How the results depend on the processing

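The METTL3 private share was above the METTL14 private share in the main setting and in all 10 alternatives, 11 of 11. When both peaks had to share at least 50% of their bases, the shares were 31.4% for METTL3 and 27.9% for METTL14. Requiring no peak of the other list within 100 bases gave 18.6% and 12.3%, a fold enrichment of at least 3 gave 21.3% and 15.9%, and genes with a peak in both lists gave 14.3% and 10.2%. Peaks of the shorter lists searched against all peaks of the other list were private in 7.7% (METTL3) and 4.51% (METTL14). For METTL14 the shorter lists against each other gave 11.7% and an FDR of at most 1e-05 gave 11.2%. Whole spans, overlap on either strand and repeated rows moved neither share beyond its interval.

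Internal loci made up 35.0% of METTL3 and 40.2% of METTL14 private peaks with the 50% overlap, and 35.8% and 53.2% with the shorter lists against all peaks. The 3'-most share of METTL14 private peaks was 22.2% with the 50% overlap, and with the shorter lists it was 30.7% for METTL3 and 19.8% for METTL14. Private peaks found in WTAP were 29.4% for METTL3 and 41.8% for METTL14 with the 50% overlap, and 48.3% and 71.7% with the shorter lists. In the control they were 49.1% and 23.6% with the 50% overlap, and 85.5% for METTL3 with the shorter lists. The order of METTL3 and METTL14 was the same in all 3 alternatives for each of these 4 quantities. Of the 12 private peaks named for their p-value, 6 (METTL3) and 11 (METTL14) were in the shorter lists, and 3 and 8 had a fold enrichment of at least 3, so the METTL3 choice rests mostly on peaks of low enrichment. Of the 6 named for fold enrichment, 2 and 0 lay in genes with a peak in both lists. The cause of the shifts was not tested. No paired analysis was possible because each list pools replicates 1 to 3, and for the same reason no replicate could be left out. The depth behind each list limits what an absent peak can show, and it is unknown.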

Other observations

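The private share of METTL3 peaks differed between chromosomes. It was 14.5% of 2169 peaks on chromosome 16, 15.2% of 1046 on chromosome 22 and 16.1% of 2417 on chromosome 17, against 25.5% of 744 on chromosome 4 and 28.4% of 352 on chromosome 13. For METTL14 the same chromosomes had 12.7% on chromosome 16, 15.6% on chromosome 22 and 15.4% on chromosome 17, against 12.3% on chromosome 4 and 14.7% on chromosome 13. They stand at the ends of the METTL3 range, so a closer METTL14 range there follows in part from the choice. Apart from chromosome Y, METTL14 ran from 11.1% on chromosome 6 to 17.1% on chromosome 18. On chromosome Y the shares were 29.5% of 61 METTL3 peaks and 6.12% of 49 METTL14 peaks.

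A peak of the other list on the opposite strand overlapped 1.85% (1.52 to 2.22%) of METTL3 private peaks and 1.81% (1.41 to 2.28%) of METTL14 private peaks. An opposite-strand peak of the same list overlapped 8.34% (7.65 to 9.07%) of METTL3 private peaks, against 11.8% of METTL3 shared peaks, and 6.86% (6.08 to 7.71%) of METTL14 private peaks, against 11.5% of METTL14 shared peaks.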
